A study of Mus musculus with 9 samples.

Results

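Medullary (mTEC) and cortical (cTEC) thymic epithelial cells of mice with a single dose of a Foxn1 transgene were compared across all genes of the count table. The comparison holds every library of these cells: 2 mTEC and 3 cTEC libraries, 5 of the 20 RNA libraries of the series. Of 38720 genes in the table, 26242 had at least 1 count in these 5 libraries and 19222 passed the filter on low counts and were tested. All mice of these groups carried the nude mutation on both copies of the endogenous Foxn1 gene (nu/nu). The heterozygous mice, wt*/-::nu/nu, carried the BAC transgene on a single allele, and the homozygous mice, wt*/wt*::nu/nu, on both. A BAC transgene is a large genomic clone carrying the gene with its surroundings, and wt* is the FLAG-tagged FOXN1 that it encodes. The study set mouse models of reduced or deleted Foxn1 beside normal ones by RNA sequencing and mapped FOXN1 on chromatin. The homozygous mTEC (2 libraries) and cTEC (3 libraries) enter only the shared estimate of spread and the tests of the difference between the transgene doses. The age of the mice and whether a library is a mouse or a pool were not given in the sources used here, so p-values measure only the spread between libraries, which may be technical.

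The thymic epithelium supports the formation of T cells in a cortex and a medulla. Cortical cells attract progenitors, present Notch ligands and select thymocytes with peptides cut by a thymus-specific proteasome and proteases. Medullary cells express genes of many other tissues, in large part through the regulator AIRE and the factor FEZF2, and so remove or divert T cells that would attack these tissues. Some medullary cells take on the programme of a peripheral cell type, such as tuft, microfold, muscle or ciliated cells, and are called mimetic cells. FOXN1 is the forkhead factor on which both epithelia depend, and it is known to act directly on genes of the cortical programme.

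Cells were sorted as CD45-negative, EpCAM-positive and MHC class II-positive. The cTEC were taken as Ly51-positive cells that do not bind the lectin UEA1, and the mTEC as Ly51-negative cells that bind it. Library totals ran from 21188378 to 21888787 counts in the heterozygous groups. Levels are given below as CPM, the read count scaled to the library total, in the order of the library numbers. Fold changes are log2 values of mTEC over cTEC with their standard error (SE), from edgeR's quasi-likelihood test. A gene was called at a Benjamini-Hochberg adjusted p under 0.05, and every fold and adjusted p in the text comes from this test.

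The sorted identities were visible in the counts. Enpep, which encodes Ly51, stood at 89, 89.1 and 90.6 CPM in the cTEC libraries and 21.7 and 21.5 in the mTEC libraries, but it follows from the sort and is no finding. Fut1 and Fut2, the fucosyltransferases that make the sugar UEA1 binds, were at 18.4 ± 1.80 and 2.21 ± 0.243 CPM in cTEC (mean ± SD, n = 3) against 122 ± 8.62 and 38.7 ± 4.11 in mTEC (n = 2), and later values given as a mean ± SD have the same n. As the mTEC were sorted by UEA1 binding, these 2 genes are tied to the sort and are no finding either. Epcam was at 522 ± 5.70 and 719 ± 4.79 CPM. Markers of other cells were not at 0, and each list below had more members higher in mTEC than lower. Over all tested genes 40.4% were higher and 31.6% lower. Of the 10 B cell markers 9 were higher and 0 lower, and they summed to 7.14 to 8.91 CPM in cTEC and 233 to 251 in mTEC, of which Blnk, an adaptor protein, gave 124 ± 7.28 and Cr2, a complement receptor, 72.7 ± 0.354. The defining marker Ms4a1 was at 1.53 ± 0.298 CPM in mTEC. Of 16 tested macrophage and dendritic cell markers 12 were higher and 2 lower, and the list summed to 159.9 to 168 against 188 to 191 CPM. All 9 tested endothelial markers were higher, and the list summed to 3.53 to 5.53 against 69.2 to 108 CPM, and all 5 tested erythroid markers were higher, with sums of 0.230 to 0.777 against 6.32 to 14.0. Of 21 thymocyte markers 15 were higher and 1 lower, with sums of 68.0 to 96.0 CPM in cTEC and 127 in both mTEC libraries. Ptprc, which encodes the CD45 of the sort, was at 1.06 ± 0.159 against 6.93 ± 0.0107 CPM. Of 14 fibroblast markers 8 were higher and 5 lower, yet their sum was lower in mTEC, with 640 to 905 CPM in cTEC against 439.7 to 456. The part of such cells in the results below was not tested. In bulk RNA, fewer cells that make a transcript and less of it per cell cannot be told apart.

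The contrast between the 2 epithelia was wide and lopsided. In mTEC 7763 genes (40.4% of those tested) were higher and 6080 (31.6%) lower, and at a fold of at least 2 the counts were 5615 (29.2%) and 1769 (9.2%). At 4-fold and above they were 4378 and 459, and at 32-fold and above 1811 and 8. These counts include genes with 0 counts in all cTEC libraries, which passed the filter through mTEC and could only be higher. Their fitted folds depend on the prior count, so the counts at high folds are not all of measured folds. Genes seen in both mTEC libraries and no cTEC library numbered 2014, and the converse 77. The median over all tested genes was 0.09 log2, and 0.08 where genes unseen in a group took their bound. The groups did not overlap in CPM for 15676 tested genes (81.6%). The genes at least 2-fold higher in mTEC took 13.7% and 13.9% of the counts of the mTEC libraries and 2.42% to 2.66% of those of the cTEC libraries. The genes at least 2-fold lower took 5.90% and 6.15% against 17.0% to 17.6%. Shares of a library sum to its total, so a gain in one set implies losses elsewhere.

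The most abundant transcripts were largely shared. Of the 10 genes of highest mean CPM in each group, 7 stood in both: Eef1a1, mt-Co1, Cd74, Eef2, Hsp90ab1, mt-Co3 and mt-Atp6. Eef1a1, a translation elongation factor, was at 7187 ± 166 CPM in cTEC and 8437 ± 469 in mTEC, and the mitochondrial mt-Co1 at 5608 ± 715 and 8231 ± 279. The cTEC list further held Nedd4, a ubiquitin ligase (2867 ± 20.5 against 2120 ± 44.8 CPM), Itm2b, a membrane protein (2674 ± 443 against 1207 ± 7.80), and Dsp, the desmosomal protein desmoplakin (2366 ± 77.8 against 769 ± 73). The mTEC list further held mt-Co2, mt-Cytb and D17H6S56E-5, the last at 629 ± 73.6 against 2899 ± 120 CPM.

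More genes were detected in mTEC. At a common depth, 20104 ± 122 genes had at least 1 count in cTEC (SD, n = 3) and 23760 ± 31.8 in mTEC (n = 2), and 14858 ± 58.0 and 17606 ± 17.7 had at least 10. The values of the groups did not overlap, although 2 against 3 libraries cannot give an exact two-sided permutation p below 0.1. Counts in both mTEC libraries with 0 in all 3 cTEC libraries were found for 2014 genes, and for 445 of them each mTEC library had at least 10. The converse held for 77 genes, and for 1 with at least 10 counts in each cTEC library. The deposited homozygous libraries gave 19928 ± 220 genes in cTEC and 25349 ± 32.5 in mTEC.

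**Figure D1:**
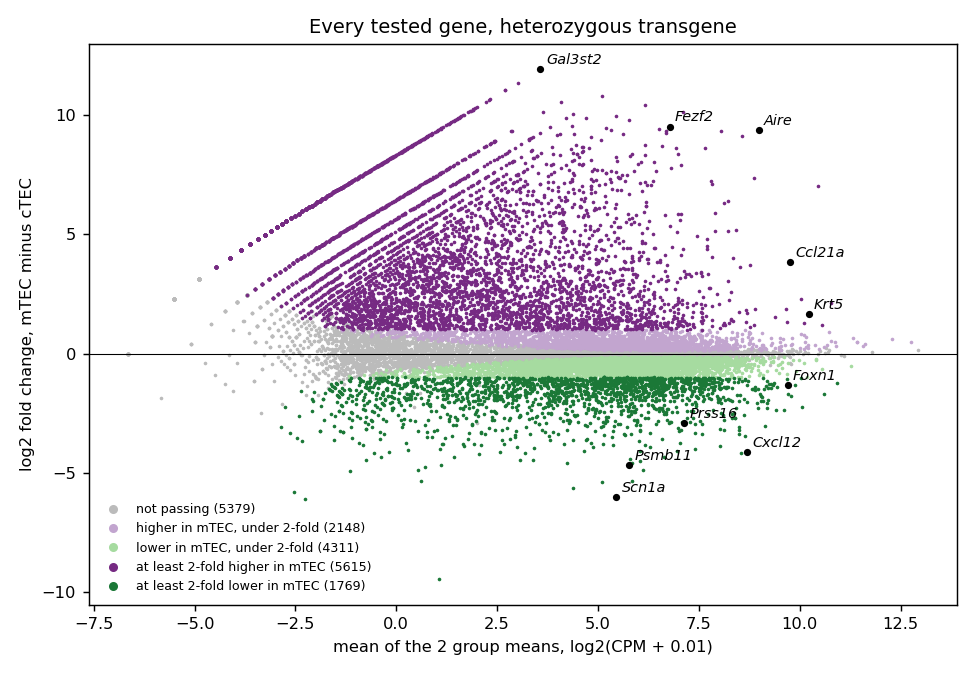
Each point is a tested gene: the x axis is the mean of the 2 group means on a log2(CPM + 0.01) scale, and the y axis the fitted log2 fold change of mTEC over cTEC in heterozygous mice. Purple marks the 5615 genes at least 2-fold higher and green the 1769 at least 2-fold lower in mTEC, the paler shades smaller called changes, and grey the genes that did not pass. The straight streaks at the upper left are genes with 0 or a few counts in cTEC, whose fitted values depend on the prior count.

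The cortical programme was strongly lower in mTEC. Of the 15 genes of a cTEC identity list, 14 were lower in mTEC and 1 higher, with a median of -1.71, beside 31.6% and 40.4% of all tested genes. The lower genes include Enpep, whose direction was fixed by the sort and which adds nothing to this count. Psmb11 encodes the beta5t subunit of the cortical thymoproteasome, which cuts the peptides for selection of CD8 T cells. It stood at 107, 101 and 108 CPM in cTEC and 3.63 and 5.05 in mTEC (-4.68 ± 0.28, adjusted p = 4.22e-09). Prss16, the thymus-specific serine protease of the class II pathway, stood at 231, 319 and 191 against 35.2 and 34.0 CPM (-2.92 ± 0.24). Both genes were lower in each mTEC library than in any cTEC library, and the cTEC libraries differed more among themselves for Prss16. Ly75, the endocytic receptor DEC-205, was at 483, 429 and 536 against 31.5 and 37.7 CPM (-3.89 ± 0.12). Ackr4, a scavenger of CCL19, CCL21 and CCL25, was at 651, 703 and 759.8 against 38 and 44.6 CPM (-4.18 ± 0.10). Neither overlapped between the groups. Pax1, a pharyngeal pouch factor, was at 795, 787 and 782 against 198 and 199 CPM (-2.07 ± 0.07), and Slc46a2, a transporter of cTEC, at 744, 867 and 729.9 against 234 and 272 (-1.71 ± 0.09). Ctsl, a lysosomal protease that processes class II peptides, was at 1361, 1468 and 1153 against 542 and 587 CPM (-1.32 ± 0.10), and Cd83, which stabilises surface MHC class II, at 12.6, 13.4 and 18.6 against 4.66 and 5.24 (-1.67 ± 0.21). All 4 were lower in both mTEC libraries than in any cTEC library. Such separation held for 81.6% of all tested genes, so here and below it does not set the named genes apart.

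Foxn1 itself was among the lower genes. It was counted at 1144, 1209 and 1144 CPM in cTEC and 488 and 502 in mTEC (-1.32 ± 0.07, adjusted p = 2.68e-09), and the groups did not overlap. The count covers the transgene and any transcript of the nude allele, so it does not measure the transgene alone. The homozygous libraries had 1484, 1299 and 1311 CPM in cTEC and 307 and 329 in mTEC. The label of a lower dose refers to the transgene, since Foxn1 counts of the heterozygous mTEC were above those of the homozygous mTEC. The simple-epithelial keratins of the cortex moved less. Krt18 was at 1375 ± 54.2 CPM in cTEC and 708 ± 8.57 in mTEC (-1.04 ± 0.07). Krt8 was at 1441 ± 80.8 and 1262 ± 33.5 CPM (-0.28 ± 0.10, adjusted p = 0.0214), a call that was lost without either mTEC library (-0.23 without the first and -0.16 without the second) and with both other scalings. The exception to the direction was Scx, which encodes the factor scleraxis, at 22.5 ± 1.83 and 29.1 ± 0.912 CPM (0.28 ± 0.11, adjusted p = 0.0351), a call lost without the second cTEC library (0.21) or the second mTEC library (0.34).

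Promoter sequences of 3 genes are shown because these genes stand for both directions of the contrast: Psmb11 and Cxcl12 were lower and Aire was higher in mTEC. Each run holds the 250 bases before the start listed by RefSeq on GRCm38.p6, written 5′ to 3′ on the strand of the gene, and capitals mark the letters GACGC or GCGTC, the core of the known FOXN1 motif on either strand.
Psmb11, chr14:54625060-54625309, plus strand: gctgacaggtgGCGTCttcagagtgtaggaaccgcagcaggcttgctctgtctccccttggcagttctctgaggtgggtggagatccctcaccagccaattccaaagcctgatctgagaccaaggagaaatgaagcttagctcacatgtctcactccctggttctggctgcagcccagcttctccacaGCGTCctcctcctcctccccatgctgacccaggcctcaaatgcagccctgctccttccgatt
Cxcl12, chr6:117168285-117168534, plus strand: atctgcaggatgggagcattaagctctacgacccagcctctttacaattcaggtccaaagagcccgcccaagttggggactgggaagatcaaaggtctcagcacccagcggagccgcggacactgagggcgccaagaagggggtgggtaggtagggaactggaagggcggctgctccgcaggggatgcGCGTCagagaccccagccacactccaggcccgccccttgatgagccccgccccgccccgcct
Aire, chr10:78043611-78043860, minus strand: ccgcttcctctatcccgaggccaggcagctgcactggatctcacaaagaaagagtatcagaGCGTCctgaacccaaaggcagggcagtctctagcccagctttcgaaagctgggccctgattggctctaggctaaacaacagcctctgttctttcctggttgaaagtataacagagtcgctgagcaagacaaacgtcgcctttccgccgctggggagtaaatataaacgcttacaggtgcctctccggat
The Psmb11 stretch holds 2 matches, and those of Cxcl12 and Aire hold 1 each. Of 32851 listed promoter stretches of this length, 22.6% hold at least 1. The stretches of Foxn1, Dll4, Ly75 and Cd80 hold 0, while those of Fezf2 and Tnfrsf11a hold 1 each. The letters therefore occurred before genes of both directions, and a match is a description, not a binding site.

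Factors that draw in and instruct progenitors were mostly lower in mTEC. Of 16 such genes 11 were lower and 4 higher, with a median of -0.88. Cxcl12, the chemokine that holds progenitors and drives their early expansion, was at 755, 882 and 725 CPM in cTEC and 44.4 and 49.7 in mTEC (-4.15 ± 0.17, adjusted p = 7.48e-11). Dll4, which encodes the Delta-like Notch ligand needed for T cell fate, was at 115, 121 and 106 against 20.6 and 19.9 CPM (-2.58 ± 0.11). Kitl, the ligand of the progenitor receptor KIT, was at 114, 112 and 134 against 10.7 and 9.44 CPM (-3.66 ± 0.11). In all 3 genes every mTEC library was below every cTEC library. Jag2 and Wnt4, a Notch ligand and a WNT ligand, were lower by smaller folds (-1.53 ± 0.08 and -1.41 ± 0.07). Il7, the survival cytokine of early thymocytes, was at 236, 275 and 235 against 188 and 183 CPM (-0.51 ± 0.07, adjusted p = 2.34e-05), the groups again apart.

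Ccl25 was the member of that list that did not pass. This chemokine for CCR9-positive progenitors was at 5.67, 6.35 and 6.10 CPM in cTEC and 5.13 and 5.48 in mTEC (-0.27 ± 0.20, adjusted p = 0.241). The groups did not overlap but differed by less than the fit could tell from the spread. In the homozygous mice it stood at 1040, 878 and 1214 CPM in cTEC and 110.1 and 82.5 in mTEC (-3.68 ± 0.15), and the difference between the doses was 3.41 ± 0.25 (adjusted p = 4.23e-07). The homozygous cTEC libraries stood above all others, and the homozygous mTEC libraries above both heterozygous groups. The 4 members higher in mTEC were Tgfb2, at 4.04 ± 1.14 against 57.9 ± 1.84 CPM (3.76 ± 0.14), Igf1 (3.48 ± 0.16), Il15 (1.00 ± 0.11) and Tslp (3.76 ± 0.52), which encode 2 growth factors and 2 cytokines.

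**Figure D2:**
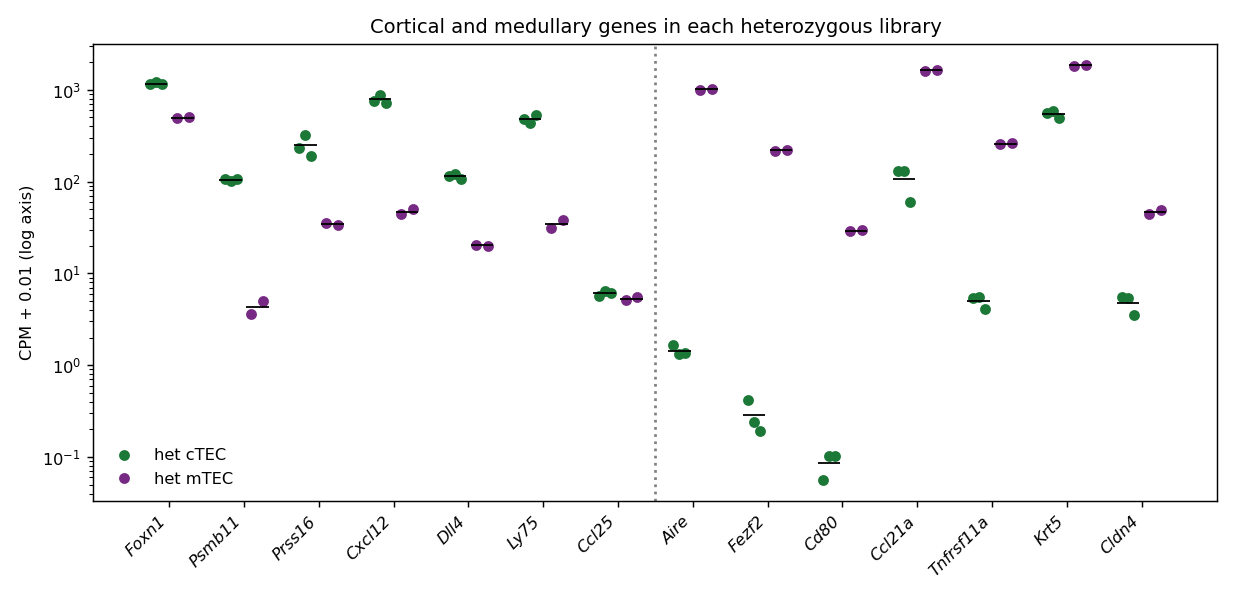
Each point is a library; the y axis is CPM + 0.01 on a log axis, green points are the 3 heterozygous cTEC and purple points the 2 heterozygous mTEC libraries, and bars are group means. Cortical genes stand left of the dotted line and medullary genes right of it: Aire lies near 1 CPM in cTEC and at 999 and 1019 in mTEC, while Ccl25 lies between 5 and 7 CPM in all 5 libraries.

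The medullary programme was the mirror image. Of 24 mTEC identity genes 20 were higher in mTEC and 2 lower, with a median of 3.68. Aire, the regulator that opens tissue-restricted genes, stood at 1.65, 1.30 and 1.33 CPM in cTEC and 999 and 1019 in mTEC (9.38 ± 0.17, adjusted p = 8.67e-14). Fezf2, a zinc-finger factor that drives a partly separate set of self-antigens, stood at 0.411, 0.232 and 0.184 against 216 and 222 CPM (9.52 ± 0.12). Cd80, the costimulatory ligand of mature mTEC, stood at 0.0457, 0.0927 and 0.0918 against 28.8 and 29.6 CPM (8.38 ± 0.19). All 3 were under 2 CPM in every cTEC library and far above that in both mTEC libraries. Ccl21a, which draws positively selected thymocytes to the medulla, stood at 131, 130.1 and 60.3 against 1597 and 1644 CPM (3.83 ± 0.26), with the third cTEC library below the others. Ccl19, the other CCR7 ligand, was at 1.44 ± 0.139 against 36.0 ± 3.31 CPM (4.55 ± 0.11). Near-identical copies of both genes exist in the mouse genome, so their counts are uncertain. The tight-junction genes Cldn3 and Cldn4, which mark mTEC precursors and mature mTEC, were at 3.36 ± 0.688 and 4.78 ± 1.13 CPM in cTEC and 87.9 ± 4.56 and 46.8 ± 3.91 in mTEC.

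Basal keratins were higher in mTEC but far from absent in cTEC. Krt5 stood at 555, 591 and 496 CPM in cTEC and 1801 and 1868 in mTEC (1.66 ± 0.10), and its partner Krt14 at 213, 194 and 183 and 757 and 757 (1.86 ± 0.07). The libraries of each group lay close together and the groups did not overlap. Trp63, the p63 factor of stratified epithelia, was lower in mTEC, at 860.3, 857 and 870.1 against 318 and 346 CPM (-1.47 ± 0.08). Ltbr, the lymphotoxin beta receptor of mTEC development, and Pdpn, which marks junctional TEC, were the lower members of the medullary list (-1.40 ± 0.06 and -1.37 ± 0.10). The hemidesmosome integrin gene Itgb4 did not pass (0.17 ± 0.10), but was called on raw library totals (0.25).

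The pathway that matures mTEC, from RANK and CD40 to non-canonical NF-kB, was tilted towards mTEC. Of 27 genes 18 were higher and 8 lower, beside 40.4% and 31.6% of all tested genes, with a median of 0.39. The count of lower genes was 5 without each of 4 libraries in turn (the first or the third cTEC library or either mTEC library). Among the receptors, Tnfrsf11a, which encodes RANK, was at 5.39, 5.47 and 4.13 against 254 and 260.2 CPM (5.60 ± 0.10), and Cd40 at 7.72, 9.55 and 5.78 against 93.5 and 96.1 (3.54 ± 0.14). Tnfrsf11b, which encodes the RANKL decoy osteoprotegerin and stands in the medullary list, was at 5.67, 3.34 and 6.06 against 129 and 136 CPM (4.63 ± 0.14). All 3 were at 10 CPM or less in every cTEC library. Traf1, an adaptor of these receptors, was higher too (2.84 ± 0.12). The non-canonical subunits Relb and Nfkb2 were at 67.6 ± 7.5 and 159 ± 19.5 CPM in cTEC and 203 ± 9.72 and 468 ± 3.08 in mTEC (1.5 ± 0.08 and 1.47 ± 0.08). The canonical subunit Nfkb1 was lower (-1.42 ± 0.07), as was Tnfrsf1a, a TNF receptor (-1.59 ± 0.06).

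The known partners of AIRE did not follow Aire. Of 16 genes of this list, Aire included, 5 were higher, 3 lower (1 without the first mTEC library) and 8 did not pass. Both called shares were below the 40.4% and 31.6% over all tested genes. The median was -0.05. Its sign was reversed on raw library totals (0.04) and without the third cTEC library (0.02), the first mTEC library (0.09) or the second (0.03), and without the second cTEC library it was -0.02. Sirt1, the deacetylase that activates AIRE, was at 41.9 ± 0.393 CPM in cTEC and 112 ± 5.61 in mTEC (1.34 ± 0.05), and Parp1 at 88.2 ± 6.06 and 123 ± 0.843 (0.40 ± 0.06). Hipk2, a kinase that phosphorylates AIRE, was lower, at 89.4 ± 3.44 and 65.0 ± 5.97 CPM (-0.55 ± 0.08).

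Antigens whose expression depends on AIRE were higher almost throughout. Of 30 listed genes 26 were tested and 25 were higher, with 0 lower. The fitted median was 6.36, and 4.74 with the genes at 0 set to their bound. As 14 of the tested genes had 0 counts in all cTEC libraries, they passed the filter through mTEC and could only be higher. The same holds below for 2 FEZF2-dependent, 1 tuft, 3 neuroendocrine, 1 muscle, 1 ciliated, 5 gut and liver, 2 costimulation, 3 chemokine and 2 claudin genes. The milk casein gene Csn2 was at 0.366, 0.139 and 0.413 CPM in cTEC and 207 and 203 in mTEC (9.27 ± 0.19). Reg3g, an antibacterial lectin of gut, was at 8.64, 7.46 and 5.19 against 157 and 168 CPM (4.43 ± 0.17). Iapp, the islet peptide amylin, was at 0.0914, 0.0464 and 0.275 against 16.3 and 17.0 (6.77 ± 0.29). The mTEC libraries were close to each other in all 3. Spink3, a pancreatic trypsin inhibitor, had 0 counts in cTEC and 5.75 and 4.86 CPM in mTEC, at least 115-fold higher than 3 counts over the cTEC group. The insulin gene Ins2 had 0 counts in cTEC and 0.306 ± 0.300 CPM in mTEC, while Ins1, Smr2 and Rbp3 had 0 counts in both groups. The list summed to 6.43 to 9.59 CPM in cTEC and 472 to 478 in mTEC. In homozygous mTEC it summed to 2356 to 2732 CPM, whereas Aire was at 1029 and 1188 CPM there, close to its heterozygous level. Csn2 and Reg3g made up most of the sum in heterozygous mTEC, so the sums do not describe the list as a class. In the test of the difference between the doses, 2 of the 26 tested members were called smaller (16 with limma-voom) and 0 greater. The median of that difference was -2.07 log2.

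Of 15 genes listed as FEZF2-dependent 14 were tested, 12 were higher and 2 lower, with a fitted median of 5.63 and 5.43 with genes at their bound. Calb1, a calcium-binding protein of neurons and kidney, was at 0.137, 0.185 and 0.0459 CPM in cTEC and 51 and 47.8 in mTEC (8.5 ± 0.19). Fcer2a, the low-affinity IgE receptor of B cells, was at 0.0914, 0.0464 and 0.0918 against 13.5 and 11.1 CPM (7.14 ± 0.34). Both were close to 0 in cTEC. The liver transthyretin gene Ttr had 0 counts in cTEC and 2.12 and 3.12 CPM in mTEC, at least 56.9-fold higher. The lower genes were Maoa, a monoamine oxidase (-0.60 ± 0.08), and Krt10, a keratin of suprabasal epidermis (-0.88 ± 0.14).

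**Figure D3:**
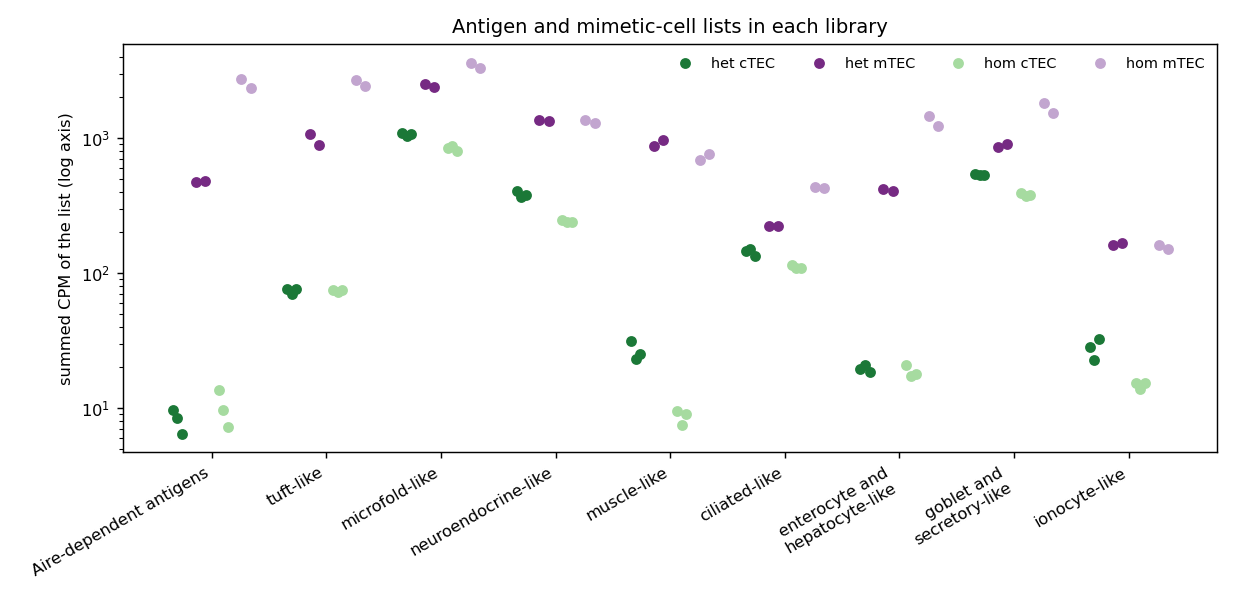
Each point is a library and the y axis the summed CPM of a gene list on a log axis; green points are cTEC and purple points mTEC, dark for heterozygous and pale for homozygous mice. Every mTEC library lies above every cTEC library for each of the 9 lists, and the AIRE-dependent antigens reach 472 to 478 CPM in heterozygous and 2356 to 2732 in homozygous mTEC. In heterozygous mTEC most of that sum is Csn2 and Reg3g.

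Programmes of mimetic cells were present in heterozygous mTEC. For tuft cells, chemosensory epithelial cells that release IL-25, 23 of 24 listed genes were tested and all 23 were higher, with a median of 6.32. Gnat3, the taste G protein gustducin, was at 0.0914, 0.0927 and 0.0459 CPM in cTEC and 102 and 73.6 in mTEC (9.97 ± 0.25). Trpm5, the cation channel of taste transduction, was at 1.65, 3.48 and 1.15 against 109 and 92.7 (5.51 ± 0.20), and Avil, an actin-binding protein of tuft microvilli, at 0.548, 0.973 and 0.321 against 113 and 87.9 (7.26 ± 0.21). In each the first mTEC library was the higher. Pou2f3, the factor that specifies tuft cells, differed little, at 29.8, 30.9 and 30.1 CPM in cTEC and 45.1 and 34.8 in mTEC (0.32 ± 0.10, adjusted p = 0.0143), and was not called without the first mTEC library (0.19). Tuft genes were thus higher by large folds and this factor by a small one.

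Of 11 microfold-cell genes in the table, which mark antigen-sampling epithelium, 10 were higher with a median of 3.98. Spib, the Ets factor of these cells, was at 17.4, 19.6 and 9.64 CPM in cTEC and 603 and 569.6 in mTEC (5.15 ± 0.18). Ccl9 and Ccl20, chemokines of this epithelium, were at 0.229 ± 0.278 and 0.215 ± 0.0707 CPM against 21.7 ± 0.1 and 13.0 ± 0.220. Gp2, the bacterial uptake receptor, was less different, at 27.2 ± 6.44 and 108 ± 1.70 CPM (1.90 ± 0.19).

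Of 24 neuroendocrine genes 23 were higher and 1 lower, with a fitted median of 5.84 and 5.31 with genes at their bound. Insm1, a factor of endocrine differentiation, was at 0.183, 0.278 and 0.275 CPM in cTEC and 188 and 177 in mTEC (9.42 ± 0.13). Neurod1, a bHLH factor of endocrine cells and neurons, was at 0.183, 0.0464 and 0 against 19.8 and 21.1 (7.87 ± 0.35), and Scg2, a secretory granule protein, at 0.32, 0.278 and 0.459 against 53.4 and 62.8 (7.26 ± 0.22). The somatostatin gene Sst had 0 counts in cTEC and 5.56 and 4.39 CPM in mTEC, at least 108-fold higher. Isl1, the LIM factor that the cTEC list also holds, was the lower member (-0.66 ± 0.08).

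Muscle genes formed another such group. Of 22 muscle genes found among the counted genes, 21 were tested and all 21 were higher, with a fitted median of 6.16 and 5.22 with genes at their bound. Myog, the factor of terminal myogenesis, was at 1.33, 0.232 and 0.230 CPM in cTEC and 172 and 163 in mTEC (8.03 ± 0.24). Chrna1, the muscle acetylcholine receptor subunit targeted in myasthenia gravis, was at 0.183, 0.0927 and 0.0918 against 17.4 and 17.8 CPM (7.01 ± 0.29), and Ckm, muscle creatine kinase, at 0.457, 0.0464 and 0.0459 against 49.7 and 49.1 (7.94 ± 0.30). All 3 were under 2 CPM in every cTEC library. The summed level was 866 to 964 CPM in heterozygous and 691 to 765 in homozygous mTEC.

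Genes of gut and liver epithelium were higher in 21 of 22 cases, with 0 lower and a fitted median of 6.43 (5.79 with genes at their bound). Cdx1, the intestinal homeobox factor, was at 0.32, 0.371 and 0.184 CPM in cTEC and 214 and 198 in mTEC (9.35 ± 0.17). Cdhr5, a cadherin of the brush border, was at 0.0457, 0 and 0.0918 against 31.7 and 31.6 (9.17 ± 0.24). The albumin gene Alb had 0 counts in cTEC and 3.96 and 5.38 CPM in mTEC, at least 102-fold higher. Ionocyte genes, of the acid- and chloride-transporting cells, were higher in 13 of 14 cases and lower in 1, with a median of 5.28. Foxi1, the factor that specifies them, was at 0.411, 0.742 and 0.230 CPM in cTEC and 30.5 and 29.4 in mTEC (5.92 ± 0.21), and the chloride channel gene Cftr at 2.51, 2.69 and 2.34 against 47.7 and 46.5 (4.14 ± 0.10). The lower gene was Moxd1, a monooxygenase (-1.29 ± 0.20).

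Ciliated and secretory programmes were less uniform. Of 18 genes of motile cilia 12 were higher, 2 lower and 4 did not pass, with a median of 3.50. Foxj1, the factor of ciliogenesis, was at 0.914, 2.41 and 0.734 CPM in cTEC and 54.7 and 53.4 in mTEC (5.23 ± 0.24), and the axonemal dynein gene Dnah5 at 0.183, 0.232 and 0.0459 against 11.9 and 11.7 (6.13 ± 0.28). Trp73, a p53 relative that acts upstream of Foxj1, was lower (-1.36 ± 0.15), as was the axonemal dynein gene Dnah9 (-0.59 ± 0.09). Of 25 goblet and secretory genes 20 were higher and 3 lower, with a median of 2.81. Foxa2, an endoderm factor, was at 0, 0.139 and 0 CPM in cTEC and 11.0 and 10 in mTEC (7.58 ± 0.43), and Muc1, a membrane mucin, at 2.65, 2.18 and 1.88 against 66.0 and 64.1 (4.77 ± 0.10). Xbp1, a factor of the secretory stress response, was lower (-1.36 ± 0.10). All 12 tested mucin genes were higher, as were all 26 tested kallikrein genes, which encode secreted serine proteases and include near-identical copies in the Klk1b cluster whose counts are uncertain. Of these, 1 mucin and 7 kallikreins had 0 counts in cTEC and could only be higher.

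Squamous genes were mostly higher in mTEC as well. Of 30 genes of keratinocyte differentiation 25 were higher, 1 lower (2 without the first or the third cTEC library) and 4 did not pass, and 8 of the 30 had 0 counts in cTEC and could only be higher. The fitted median was 3.30, and 2.50 with genes at their bound. Dsg1a, a desmoglein of the outer epidermis with near-identical relatives, was at 1.01, 0.371 and 0.367 CPM in cTEC and 233 and 253 in mTEC (8.6 ± 0.16), and Krt17, a stress keratin, at 339, 387 and 252 against 1002 and 1008 (1.54 ± 0.13). Klk7, a corneodesmosome protease, had 0 counts in cTEC and 3.63 and 3.35 CPM in mTEC, at least 75.9-fold higher. Spink5, a protease inhibitor of the outer epidermis, stood at 12.1 ± 3.21 CPM in cTEC and 10.7 ± 0.350 in mTEC and did not pass, though it was called without the third cTEC library (-0.41). In the homozygous mice all 30 were higher, with a fitted median of 6.68 (5.57 with genes at their bound). Across the keratin family 32 of 43 tested genes were higher and 5 lower (3 lower without the second mTEC library), with 6 at 0 counts in cTEC, and of 19 tested claudins 12 were higher and 5 lower. Cldn8, a paracellular barrier claudin, was lower, at 81.3, 34.8 and 108 CPM in cTEC and 9.23 and 10.3 in mTEC (-3.03 ± 0.38).

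Genes of antigen presentation went both ways, in shares near those over all tested genes (40.4% higher and 31.6% lower). Of 18 MHC class I pathway genes 9 were higher and 7 lower, with a median of 0.29, or 0.16 without the second cTEC library. B2m, the light chain of class I, was at 415, 259.5 and 348 CPM in cTEC and 1790 and 1737 in mTEC (2.28 ± 0.15), and H2-K1, a class I heavy chain with near-identical relatives, at 1001, 722 and 891 against 2147 and 2141 (1.21 ± 0.11). Nlrc5, the transactivator of class I genes, was higher (2.87 ± 0.21). Psmb9 and Tap1, an immunoproteasome subunit and the peptide transporter, were lower, at 154 ± 20.2 and 262 ± 38.6 CPM in cTEC and 49.4 ± 0.357 and 136 ± 4.19 in mTEC. Of 25 class II pathway genes 11 were higher and 11 lower, and 3 did not pass. Ciita, the transactivator of class II genes, was at 473, 392 and 443 against 220.3 and 231 CPM (-1.04 ± 0.08), and H2-DMa, the peptide exchanger, at 225 ± 15.3 against 83.9 ± 0.204 (-1.51 ± 0.07). Cd74, the invariant chain, was at 3799 ± 149 against 6223 ± 374 CPM (0.63 ± 0.08). The proteases of this pathway differed in direction: Ctss and Ctsh, the cathepsins S and H, were at 1.15 ± 0.536 and 4.74 ± 0.417 CPM in cTEC and 84.4 ± 1.53 and 133 ± 1.16 in mTEC, against the lower Ctsl and Prss16 above.

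Of 17 tested costimulation and checkpoint genes 15 were higher and 2 lower (1 lower without the second mTEC library), with a median of 2.04 (1.97 with genes at their bound). Icosl, the ligand of ICOS, was at 15.4, 13.1 and 12.2 CPM in cTEC and 414 and 398 in mTEC (4.82 ± 0.11), and the death receptor gene Fas at 3.88, 3.66 and 2.25 against 23.3 and 23.4 (2.75 ± 0.15). Cd274, which encodes PD-L1, was lower, at 108, 139.6 and 92.5 against 44.7 and 50.6 CPM (-1.33 ± 0.13). Of 35 tested chemokine genes 28 were higher and 2 lower, with a fitted median of 3.83 (2.39 with genes at their bound). Cxcl9, a CXCR3 ligand, was at 1.23, 0.278 and 0.734 CPM in cTEC and 95.9 and 91.8 in mTEC (6.87 ± 0.18), and Ccl22, a CCR4 ligand of the medulla, at 0.457, 0.0927 and 0.0918 against 20.8 and 16.1 (6.31 ± 0.33). The lower chemokines were Cxcl12 and Cx3cl1, the CX3CR1 ligand (-1.62 ± 0.08). Several of these genes are also made by the macrophages, dendritic cells and B cells whose markers were higher in mTEC above, a part that was not tested.

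Transcription factors moved both ways. Of 26 TEC factors 15 were lower and 8 higher, beside 31.6% and 40.4% of all tested genes, with a median of -0.34. Hoxa3, the pharyngeal pouch homeobox gene, was at 45.6, 45.1 and 50.9 CPM in cTEC and 14.2 and 14.8 in mTEC (-1.79 ± 0.10). Id1, a BMP-induced inhibitor of bHLH factors, was also lower (-1.23 ± 0.14). Irf4, an interferon regulatory factor, was at 1.14, 0.834 and 0.459 against 48.0 and 50.5 CPM (5.83 ± 0.16), and Ehf, an epithelial Ets factor, at 11.6, 12.0 and 9.0 against 167 and 164 (3.84 ± 0.10). Hox genes did so too. Of 32 tested 25 were higher and 7 lower, and 16 had 0 counts in cTEC. Hoxa4 and Hoxb3 were among the lower genes (-2.69 ± 0.17 and -1.46 ± 0.19). Hoxb9 had 0 counts in cTEC and 6.5 and 6.32 CPM in mTEC, at least 139-fold higher. These 32 gave a fitted median of 5.95 (3.62 with genes at their bound), yet the sum of all Hox counts was lower in mTEC, at 86.8 and 87.3 CPM against 124 to 139.

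Signals that pattern the epithelium also moved both ways. Of 32 tested WNT, BMP and FGF genes 17 were lower and 14 higher, the latter a share near the 40.4% over all genes, with a median of -0.39, or -0.25 without the first mTEC library. Receptor genes were found on both sides, with Fgfr3 higher (3.49 ± 0.23). Fgfr2, the receptor of FGF7 and FGF10, was at 277, 327 and 268 CPM in cTEC and 118 and 134 in mTEC (-1.30 ± 0.11), and Lrp6, the WNT co-receptor, at 319.6, 325 and 311 against 131 and 154 (-1.24 ± 0.08). Bmp4, a ligand that sustains Foxn1, was lower (-2.08 ± 0.21). The ligands Wnt10a and Wnt10b were higher, at 0.966 ± 0.00710 and 4.65 ± 2.45 CPM in cTEC and 108 ± 8.87 and 106 ± 1.30 in mTEC. Of 44 collagen genes 21 were higher and 19 lower, again in shares near those over all genes, and the summed level was 4104 to 5283 CPM in cTEC against 2755 to 2859 in mTEC. Col18a1, which encodes the basement membrane collagen that holds endostatin, was at 845, 835 and 804 CPM in cTEC and 171 and 188 in mTEC (-2.29 ± 0.09). Col5a1, a fibrillar collagen, was lower as well (-2.05 ± 0.13), while Col1a1, of collagen I, was at 0.521 ± 0.189 against 20.7 ± 7.37 CPM (5.21 ± 0.31). The fibroblast markers, 2 of them collagen genes that were lower here, were also higher in cTEC in sum, and their part was not tested.

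**Figure D4:**
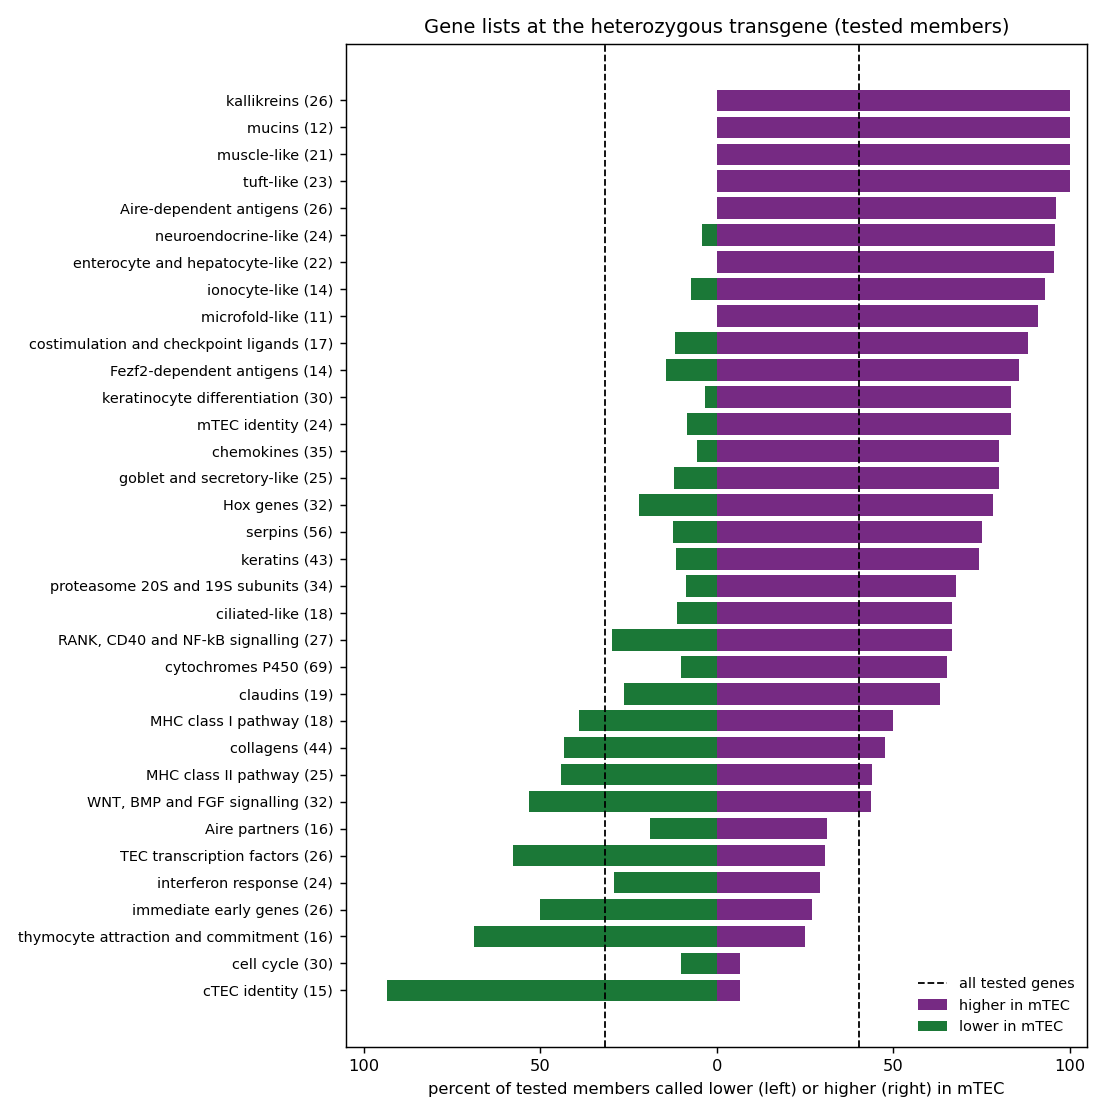
For each gene list the bar to the right is the percent of tested members higher in mTEC and the bar to the left the percent lower, with the number of tested members in brackets and dashed lines at 40.4% and 31.6%, the shares over all tested genes. Kallikreins, mucins, muscle and tuft genes reach 100% higher, and the cTEC identity list has 14 of 15 members lower, the sort marker Enpep among them.

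Proteasome and cell cycle genes differed by small folds at this dose, with Ccnd1 as the exception. Of 34 tested proteasome subunits of the 20S core and 19S cap, 23 were higher and 3 lower, with a median of 0.23 and 0 at 2-fold or more. Psma6, an alpha-ring subunit, was at 94.4, 102 and 101 CPM in cTEC and 174 and 170 in mTEC (0.71 ± 0.07). The 3 lower calls were 0 without the second mTEC library. Of 30 cell cycle genes 2 were higher, 3 lower and 25 did not pass, with a median of -0.02. That median lay between -0.04 and 0.14 without single libraries and at 0.07 on raw totals. With library number as a block in the fit it was -0.10, with 1 gene higher and 7 lower. Without the second cTEC library 9 were higher and without the second mTEC library 4. Without the third cTEC library or the first mTEC library 1 was higher. Ccnd1, the cyclin D1 gene, was at 6.85, 4.96 and 8.08 CPM in cTEC and 255 and 232 in mTEC (5.11 ± 0.13), and Mki67, the proliferation antigen, was at 253, 311 and 235 against 236 and 262 (-0.18 ± 0.12, adjusted p = 0.198). With the block by library number Mki67 was called lower (-0.265).

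Acute response genes varied within cTEC. Immediate early genes, which are switched on within minutes by tissue handling and other stimuli, ranged in sum from 4330 through 5487 to 8086 CPM in the cTEC libraries and stood at 2956 and 3103 in mTEC, the first cTEC library being highest. Of 26 genes 13 were lower and 7 higher, beside 31.6% and 40.4% of all tested genes. In the homozygous mice the sums were 1344 to 2228 CPM in cTEC and 1301 to 1422 in mTEC, so this set also differed between the doses within cTEC. In the heterozygous libraries Egr1 was at 1554, 1210 and 1044 CPM in cTEC and 452 and 389 in mTEC (-1.68 ± 0.22, adjusted p = 1.56e-05). Of 24 interferon response genes 7 were higher, 7 lower and 10 did not pass. The higher share was below that over all tested genes and the lower share near it. Their summed level ran from 1357 to 2297 CPM in cTEC, around the 1634 to 1646 of mTEC. Without the second cTEC library 12 were lower, and without either mTEC library 4. Isg15, a ubiquitin-like protein induced by interferon, was at 79.4, 39.5 and 66.9 against 30.6 and 32.2 CPM (-1.07 ± 0.21).

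The 15 largest fitted values towards mTEC were mostly of genes unseen in cTEC. Their fitted values depend on the prior count, so their rank against genes seen in both groups, such as Aire, Fezf2 or Gnat3, is not shown by these data. Gal3st2, a galactose sulfotransferase, had 0 counts in cTEC and 24.3 and 23.4 CPM in mTEC, at least 518-fold higher. Ip6k3, an inositol phosphate kinase, was at least 354-fold and Spic, an Ets factor known from splenic macrophages, at least 283-fold higher. Cldn13, a claudin, Slc17a4, an intestinal anion transporter, and Npy, neuropeptide Y, were at least 213-fold, 173-fold and 154-fold higher. Pappa2, a protease of IGF-binding proteins, had 1 count over the cTEC group, a ratio of 2200 (95% counting interval 394 to 86900) that covers counting error only. Calcb, the beta form of the neuropeptide CGRP, was at 0.183, 0 and 0.0918 CPM in cTEC and 143 and 145 in mTEC (10.44 ± 0.18). Ang4, Skint2, Hbb-y, Chi3l4, Ly6c2 and Reg3b also stood among the 15 largest but have close relatives that can share reads, so their counts are uncertain. The same 15 held Samsn1, an adaptor of immune cells, at 7.02 and 8.40 CPM in mTEC and 0 counts in cTEC, at least 168-fold higher.

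Of the 15 largest differences towards cTEC, that of Scn1a comes first. Scn1a, a neuronal sodium channel, was at 97.9, 57.0 and 103 CPM in cTEC and 1.46 and 1.32 in mTEC (-6.03 ± 0.31, adjusted p = 9.87e-10). Mrc2, the collagen receptor Endo180, was at 108, 111 and 116 against 2.83 and 2.97 CPM (-5.35 ± 0.09). Col8a2, a short-chain collagen, was at 129, 147 and 123 against 4.80 and 4.58 (-4.91 ± 0.16). Every mTEC library was under 5 CPM in all 3. Emilin3, an extracellular glycoprotein, Colgalt2, a collagen galactosyltransferase, and Col13a1, a transmembrane collagen, had values of -5.64 ± 0.24, -5.37 ± 0.26 and -4.59 ± 0.15 log2. Sptssb, a subunit of serine palmitoyltransferase, Astn2, an astrotactin of neuronal migration, and Otoa, the inner ear protein otoancorin, had values of -4.59 ± 0.23, -4.52 ± 0.12 and -4.42 ± 0.15. The thymoproteasome gene Psmb11, with values given above, also stood in this group. The remaining genes, Abca9, Ralyl, Pkhd1l1, Shc3 and Csdc2, ranged from -4.47 to -4.20.

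The design allows a test of whether the mTEC to cTEC difference depended on transgene dose. In the homozygous mice 8303 genes (43.2%) were higher and 7577 (39.4%) lower in mTEC. Of the genes higher at the heterozygous dose 6692 were also higher at the homozygous dose, 86.2% of the former and 80.6% of the latter. Of the lower genes 5227 were shared, 86% and 69% of each. Opposite calls were found for 387 genes higher and 265 genes lower at the heterozygous dose. The difference itself, as an interaction term, was called greater at the heterozygous dose (more positive, or less negative) for 4848 genes (25.2%) and smaller for 3314 (17.2%). That split depended on scaling. With raw library totals it was 3101 against 4123 and with DESeq2-type size factors 3403 against 3925, as these shifted the median interaction of all genes by -0.16 and -0.13 log2.

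The cortical list was less distinct at the lower dose. Of 15 cTEC identity genes 12 had a less negative difference at the heterozygous dose and 2 a more negative one (10 and 2 on raw totals, 12 and 1 without the first mTEC library), with medians of -1.71 against -3.25. Prss16 was at 6773, 6330 and 7107 CPM in homozygous cTEC and 174 and 98.8 in homozygous mTEC, and the difference between the doses was 2.95 ± 0.31 (adjusted p = 8.96e-06). Dll4 was at 538, 507 and 505 against 32.8 and 25 CPM there (1.83 ± 0.14), and Cd83 at 223, 211 and 276 against 26.8 and 20.5 (1.90 ± 0.27). In these 3 genes every homozygous cTEC library stood above every heterozygous one, several times for Dll4 and by much larger ratios for Prss16 and Cd83. Psmb11 was at 1053, 961 and 978 against 29.5 and 13.2 CPM, and its smaller difference between the doses (1.11 ± 0.37, adjusted p = 0.0264) was not called without the second mTEC library (0.85) or with either other scaling.

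Of the 24 medullary genes 12 had a smaller and 5 a greater difference at the heterozygous dose. Krt5 was at 102, 82.1 and 102 CPM in homozygous cTEC against 1983 and 2269 in homozygous mTEC (-2.58 ± 0.15, adjusted p = 6.03e-08), and Krt14 at 40.3, 40.3 and 39.9 against 809.6 and 870.2 (-2.29 ± 0.11). Here it was the heterozygous cTEC libraries that stood above the homozygous ones, while the mTEC libraries differed little. Cldn4 was at 1.87, 0.997 and 1.28 against 229.9 and 197 CPM (-3.82 ± 0.27). Aire, Fezf2, Cd80, Tnfrsf11a and Spib were not called in this test, with differences of 0.69 ± 0.28, 0.89 ± 0.30, 0.60 ± 0.46, 0.02 ± 0.16 and -0.28 ± 0.26 log2. Fezf2 missed the threshold narrowly and was called without the first cTEC library (1.30) or with limma-voom (0.91). Spib was called without the third cTEC library (-0.56) or with library number as a block (-0.55). With that block Aire was called too (0.90).

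Over all tested genes 17.2% had a smaller and 25.2% a greater difference at the heterozygous dose. Here too greater means more positive or less negative, not larger in size, and smaller means the reverse. Of 30 keratinocyte genes 16 had a smaller difference and 1 a greater one, which became 2 without the first cTEC library and 0 without either mTEC library. Of 43 keratins 23 were smaller and 4 greater, and of 25 goblet genes 13 and 1. Of 35 chemokines 19 were smaller and 3 greater, or 14 and 5 without the first cTEC library. The AIRE-dependent antigens had 2 of 26 members smaller and 0 greater, both shares below those over all genes, although limma-voom called 16 smaller. Their median interaction was -2.07 log2. With genes at 0 set to their bound, their median was 4.74 at the heterozygous and 7.39 at the homozygous dose. As 14 of the 26 had 0 counts in heterozygous cTEC, these sizes are uncertain, and the few calls do not show a small difference. Of 34 proteasome subunits 30 had a greater difference at the heterozygous dose and 0 a smaller one, and on raw totals 29 and 1. In the homozygous mice 29 of them were lower in mTEC and 3 higher, with a median of -0.53. Of 30 cell cycle genes 25 had a greater difference at the heterozygous dose and 0 a smaller one (16 and 0 on raw totals, 15 without the first mTEC library). In the homozygous mice 28 were lower in mTEC, with a median of -0.74, against -0.02 at the heterozygous dose. The subsets thus differed less in these genes at the heterozygous dose. Of 24 interferon response genes 12 had a smaller and 0 a greater difference (19 and 0 without the second cTEC library, 9 and 2 without the first). The marker lists of non-epithelial cells also differed by dose, and their part in these counts was not tested. Of 21 thymocyte markers 14 had a greater and 0 a smaller difference, with sums of 147 to 206 CPM in homozygous cTEC and 186 to 216 in homozygous mTEC. Of 16 macrophage and dendritic cell markers 0 were greater and 6 smaller (4 without the first or the third cTEC library), and of 14 fibroblast markers 2 and 6. The former summed to 99.7 to 108 CPM in homozygous cTEC and 637 to 727 in homozygous mTEC.

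**Figure D5:**
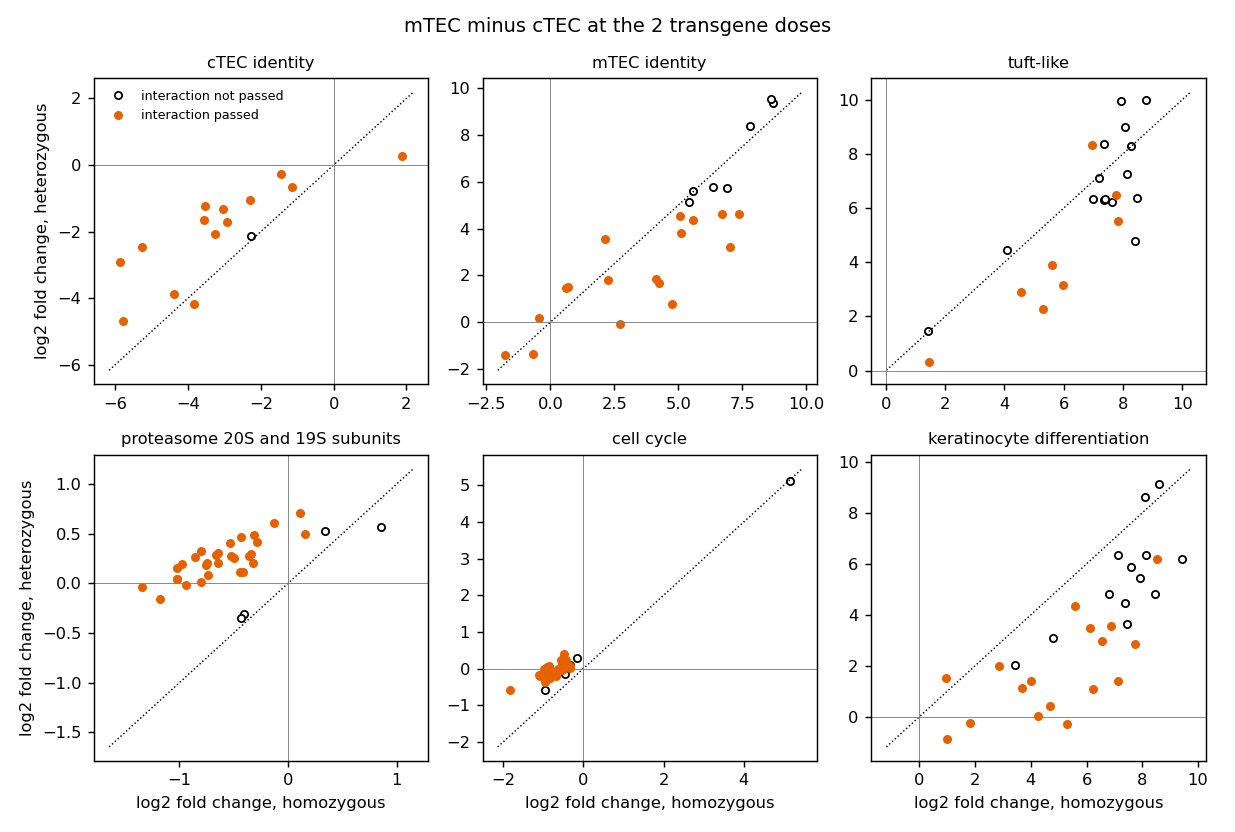
Each point is a tested member of a list, with the log2 fold change of mTEC over cTEC in homozygous mice on the x axis and in heterozygous mice on the y axis; filled points passed the interaction test and open points did not, and the dotted line marks equal values. Members of the cTEC list lie mostly above the line, keratinocyte genes mostly below it, and 30 of 34 proteasome subunits are filled and lie above it.

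The largest differences between the doses were found in single genes. Towards a greater difference at the heterozygous dose, Ppp1r27, a protein phosphatase 1 regulator, was at 1.65, 1.53 and 1.56 CPM in heterozygous cTEC and 6.97 and 7.36 in heterozygous mTEC. It was at 46.7, 48.5 and 41.9 and 6.57 and 5.14 CPM in the homozygous libraries (5.30 ± 0.19, adjusted p = 2.03e-09). Its direction was opposite at the 2 doses. Pcdh15, a protocadherin of hair cells, was at 1.51, 1.25 and 1.06 against 47.2 and 51.9 CPM at the heterozygous and 10.7, 11.1 and 12.7 against 15.0 and 18.5 at the homozygous dose (4.89 ± 0.20). Towards a smaller difference, Elf5, an Ets factor of glandular epithelia, was at 3.47, 1.90 and 4.13 against 8.81 and 7.03 CPM at the heterozygous and 0, 0 and 0.0476 against 10.2 and 8.84 at the homozygous dose (-7.36 ± 0.75). For Elf5 the cTEC libraries differed between the doses and the mTEC libraries lay close, and with 1 count over the homozygous cTEC group the size of its value is uncertain. Otog, an inner ear glycoprotein, was lower in mTEC at the heterozygous dose, with 18.6, 24.7 and 26.9 against 10.6 and 9.82 CPM. At the homozygous dose it was higher in mTEC, with 0.140, 0.363 and 0.190 against 7.69 and 9.26 (-6.19 ± 0.34).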

How the data were processed

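Poly(A) RNA of sorted thymic epithelial cells was sequenced, and the values used are raw read counts per gene in one table of the whole series, deposited by the authors. Per the submitters' processing notes, the tools of the series include Trimmomatic 0.32, TopHat2 2.0.10, Bowtie2 2.2.3, BWA 0.7.5, Picard 1.105, SAMtools, featureCounts and MACS2 2.0.10, with the builds mm10 and GRCm38. Which tool made which file, the annotation counted, and whether strand was used were not stated in the material at hand, so overlapping and antisense genes cannot be told apart.

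The 10 libraries of both transgene doses were fitted together as 4 groups with edgeR 4.0.16 in R 4.3.3. Genes were kept by filterByExpr at a minimum count of 10 and a total of 15, scaled by TMM and tested by quasi-likelihood F tests with Benjamini-Hochberg adjustment at 0.05. Fitted log2 values carry a prior count of 0.125, and a standard error is the absolute log2 value over the square root of F. Against a group with 0 counts, folds are bounds set against 3 counts over the group. CPM used raw library totals, so that CPM ratios and fitted values differ by the TMM factors. The dose test was the heterozygous minus the homozygous mTEC to cTEC difference. The scripts were tested on simulated data.

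Alternatives were DESeq2-type size factors, raw library totals, no filter, a minimum count of 30, only the 5 heterozygous libraries, DESeq2 1.42.0, limma-voom 3.58.1, a block by library number, and leaving out each heterozygous library. The comparison, the gene lists and the fixed genes were chosen with earlier results of these data known. By rule the text names 29 fixed genes, the 15 largest changes in each direction with a mean of at least 2 CPM and no overlap between groups, the 10 most abundant genes in each group, the 8 largest differences between doses in each direction, and list members of smallest adjusted p. Predicted genes were left out of the rankings. A further 30 genes named as examples were chosen after their values were seen. Of 328 genes so chosen 320 had a RefSeq symbol. The chromatin files and the other RNA libraries of the series were not used here, and some genes are not reported here.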

Additional observations from a re-analysis of the deposited data

Results flagged for a closer look

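The mTEC to cTEC difference depended on transgene dose for many genes by the interaction test, with values given as the heterozygous minus the homozygous log2 difference. It was greater at the heterozygous dose for 4848 genes and smaller for 3314. The genes with the greatest positive values were Ppp1r27 (5.30), Fgf14 (5.29), Pcdh15 (4.89), Nsg2 (4.15), Slc22a7 (4.07), Samsn1 (4.03), Itgbl1 (4.01) and Ajap1 (4.01). Those with the greatest negative values were Elf5 (-7.36), Bpifb9b (-7.16), Cadm2 (-6.72), Krt13 (-6.71), Ccl11 (-6.44), Lmo2 (-6.44), Fgg (-6.23) and Otog (-6.19). Bpifb9b was not called without the first heterozygous cTEC library (-5.93).

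Among cortical and progenitor-supporting genes the difference was less negative at the heterozygous dose for Ccl25 (3.41), Prss16 (2.95), Cd83 (1.90), Dll4 (1.82), Ctsl (1.72), Cxcl12 (1.32), Krt18 (1.26), Krt8 (1.17), Psmb11 (1.11), Foxn1 (1.02), Ly75 (0.51) and Il7 (0.39). Ly75 was not called without the second mTEC library (0.37), with DESeq2-type size factors (0.38), on raw totals (0.35) or with no filter (0.47). Il7 was not called with those size factors (0.26), on raw totals (0.23) or with the replicate block (0.33). Among medullary genes Cd40 (1.40) and Relb (0.80) had a greater difference. A smaller one was found for Cldn4 (-3.82), Cldn3 (-2.73), Krt5 (-2.58), Krt14 (-2.29), Tnfrsf11b (-2.08), Ccl21a (-1.27), Pou2f3 (-1.14) and Ccl19 (-0.50). Ccl19 was not called without the first (-0.41) or the third (-0.56) cTEC library or the second mTEC library (-0.42).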

How the results depend on the processing

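Counts of called genes between the subsets stayed within 1.5 times of 7763 and 6080 under every alternative run. On raw library totals they were 8450 and 5239, with DESeq2 7710 and 5208, and leaving out one heterozygous library gave 7517 to 8020 higher and 4488 to 6060 lower. For 313 genes with a tested fold change, 4019 values under the alternatives kept direction and side of the threshold, 40 lost the call, 9 gained one and 0 reversed. The dose test, an interaction, was more sensitive to scaling: its 4848 greater differences became 3101 on raw totals and 3177 with the DESeq2 Wald test. Of 45 genes tested for dose, 505 values kept direction and side, 19 lost and 6 gained a call. The interaction of Tnfrsf11a, which was not called, turned from 0.02 to -0.11 with size factors and with DESeq2, to -0.14 on raw totals, to -0.0161 with no filter and -0.0172 with a minimum count of 30, and ranged from -0.127 to 0.0929 without one library. The interaction of Trp63 turned from -0.0153 to 0.0277 without the first mTEC library, with a range from -0.0809 to 0.0277. The cause was not tested. List medians near 0 turned for the AIRE partners (0.0384) and the cell cycle (0.0657) on raw totals, and at a minimum count of 30 only 23 of the 32 Hox genes were tested, of which 16 were higher and 7 lower. Whether library numbers pair the samples could not be decided. Deviations of same-numbered libraries correlated at 0.03 and -0.01 across genes, with only 2 such pairs. The deviations of 2 mTEC libraries from their mean are mirror images. The same cTEC libraries therefore gave -0.03 and 0.01 with the mTEC library of the other number. With the replicate block 6879 genes were higher and 5325 lower, the dose test gave 3578 and 2485, and its values for Tnfrsf11a and Trp63 were -0.139 and 0.00833. At these depths, genes unseen in cTEC have bounds in place of folds.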
